A study of Mus musculus with 3 samples.

Results

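Connexin and pannexin genes were followed in the embryonic mouse ureter, the muscular duct between kidney and bladder. The members were 9 genes chosen by name, the connexin genes Gja1, Gja4, Gja5, Gjb1, Gjb2, Gjb5, Gjb6 and Gjc1 and the pannexin gene Panx1, out of 18194 genes named on the array. Each was read from every probe set (a group of short probes for one transcript) annotated with that symbol alone, 16 probe sets in all, and its level was taken from the probe set with the highest mean log2(signal + 1). The study holds 1 group of 3 samples, replicates 3, 8 and 9, all of ureter from wild-type FVB/N embryos at embryonic day 15 (Theiler stage 23), of unknown sex and with no treatment given. The tissue was taken from the length between the renal pelvis and the bladder, was not pooled, and its RNA was amplified in 2 rounds and hybridised to 1-colour Affymetrix Mouse Genome 430 2.0 arrays. Nothing in the labels says that the samples are of different embryos or litters, and their spread may be technical. With no second group, levels were set against a background and no test between conditions was possible.

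Gap junctions are channels that join the cytoplasm of neighbouring cells and pass ions and small molecules. They are built from connexins, each contributed by both cells, and connexins of different kinds can share a channel. In smooth muscle such channels carry the electrical signal from cell to cell, which in the ureter is the basis of the peristaltic wave. Pannexins have a similar fold but form channels in the membrane of single cells, through which ATP leaves the cell. Released ATP acts on purinergic receptors and is broken down by enzymes on the cell surface.

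On each array, background was the 95th percentile of 51 measured genes that mark organs such as testis, retina, lens, stomach and pituitary, not part of the dissected tissue. It amounted to signals of 237, 269 and 307 in replicates 3, 8 and 9. A gene was called above background when it exceeded this on all 3 arrays. Of all named genes 60.1% were, and of the 51 reference genes 1 was (Cela1). Among markers of the ureter's own cell types, all 6 genes of ureteric mesenchyme and 7 of 10 of smooth muscle were above background. So were 8 of 11 of urothelium and epithelium and 10 of 12 of endothelium. The exceptions included the smooth muscle genes Cnn1, Myocd and Lmod1 and the uroplakin genes Upk1a, Upk2 and Upk3a, which mark mature urothelium. Another uroplakin gene of the list, Upk1b, was above background, with signals of 2544, 1816 and 938 in replicates 3, 8 and 9. For other tissues, all 9 hepatocyte, all 6 erythroid and 7 of 8 skeletal muscle genes measured passed, against 2 of 9 of kidney tubule. The counts alone therefore do not show which cell types the samples held. A probe set's brightness also depends on its own probes, so signals of different genes do not rank their transcripts. A lower signal in a whole tissue can come from fewer cells of a type or from less RNA per cell, which cannot be told apart here.

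Of the 9 members, 5 were above background: Gja1, Gjc1, Gja4, Gjb2 and Panx1. This share is close to the 60.1% of all named genes. The same 5 members were above background on at least 2 arrays, as were 64.3% of genes. Among the other members, Gjb5 exceeded background on 1 array, and Gja5, Gjb1 and Gjb6 stayed below it on every array. The median over the 9 members of the mean signal was 449.8, against 777 over all named genes. By probe set, 10 of the 16 were above background, against 48.9% of all named probe sets. Of these 10, 5 were probe sets of Gja1 and 2 of Gjc1.

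**Figure D1:**
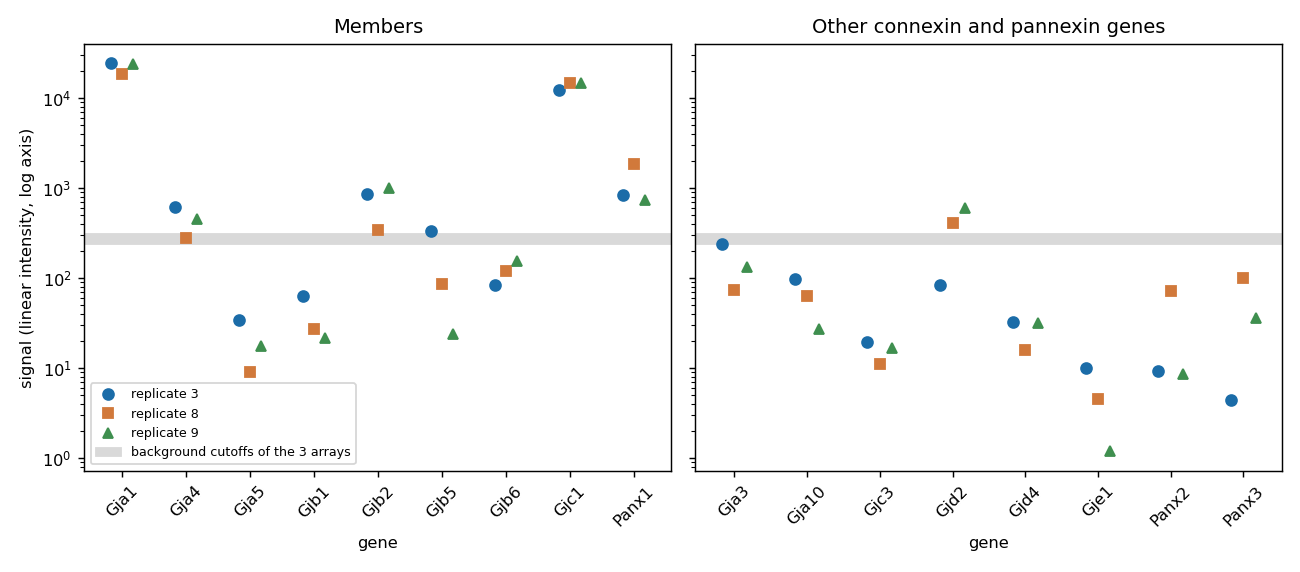
Signal (linear intensity on a log axis) of each member (left) and of each other connexin or pannexin gene measured (right) in the 3 samples, 1 symbol per sample, with the grey band spanning the background cutoffs of the arrays (237 to 307). Gja1 and Gjc1 lie far above the band in every sample, Gja4, Gjb2 and Panx1 above their cutoffs by less, and no gene on the right is above background in all 3 samples.

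Sequences upstream of the start sites are shown for the brightest member and for relatives whose signals lay on different sides of background: the vascular connexin genes Gja4 and Gja5, and Gjb2 and Gjb6, which lie next to each other with no protein-coding gene between them. They are the 100 bases before the annotated RefSeq start (build GRCm38.p6), 5′ to 3′ on the gene's strand, and capitals mark matches to the motifs searched.
Gja1, chr10:56377200-56377299, plus strand: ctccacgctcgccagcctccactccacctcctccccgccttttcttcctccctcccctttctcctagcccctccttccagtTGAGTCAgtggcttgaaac
Gja4, chr4:127314040-127314139, minus strand: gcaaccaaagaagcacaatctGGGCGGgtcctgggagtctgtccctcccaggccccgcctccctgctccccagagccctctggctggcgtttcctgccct
Gja5, chr3:97032302-97032401, plus strand: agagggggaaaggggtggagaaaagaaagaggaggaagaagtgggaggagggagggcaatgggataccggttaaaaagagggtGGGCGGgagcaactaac
Gjb2, chr14:57104703-57104802, minus strand: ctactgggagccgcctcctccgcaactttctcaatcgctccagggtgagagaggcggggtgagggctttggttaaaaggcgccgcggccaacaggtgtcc
Gjb6, chr14:57133612-57133711, minus strand: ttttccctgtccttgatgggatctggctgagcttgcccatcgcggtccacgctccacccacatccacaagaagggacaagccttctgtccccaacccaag

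RefSeq promoter windows matched 8 of the 9 members, the one without being Gjc1. Both strands of the 250 bases before each start were searched for the AP-1 site TGANTCA, the GC box GGGCGG, the TATA sequence TATAAA and the CArG box, the site of serum response factor, in which a TATA match can lie. The AP-1 letters were found before Gja1, 19 to 13 bases from its start, and before no other member, against 6.75% of all 32851 promoter windows. A GC box was present before Gja4, Gja5 and Gjb2 and before 1 of the 4 annotated starts of Gjb1, against 32.7% of all windows. The TATA letters occurred before Gjb5 and at the same Gjb1 start, against 12.4% of windows. No member had a CArG box, which 1.47% of windows held. GC content of the 250 bases was 69.2% for Gjb2, 61.2% for Gja4, 56.8% for Gjb6, 56.4% for Gja5 and 50.0% for Gja1, with a median of 52.4% over all windows. These matches describe letters only, and the arrays did not measure binding.

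The connexins of muscle and mesenchyme gave strong signals in every sample. Gja1 encodes Cx43, the most widespread connexin, found in smooth muscle, fibroblasts and many epithelia. Its signals in replicates 3, 8 and 9 were 24325, 18417 and 24150, a mean of 22297 ± 3361 (SD, n = 3, as for all means given with ±). Replicate 8 was the lowest, and in every sample the signal lay at least 6.09 log2 units above that array's background. Gjc1 encodes Cx45, the connexin of early heart and of developing smooth muscle. It gave signals of 12270, 14800 and 14819 in replicates 3, 8 and 9 (13963 ± 1467). Replicate 3 was the lowest here and the other samples were nearly equal, all at least 5.59 log2 units above background. The SD over the 3 samples was 0.23 for Gja1 and 0.16 for Gjc1 on the log2 scale, both under the median of 0.29 over the genes above background.

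Gja1 was measured by 6 probe sets, of which 5 were above background. The level above came from 1437992_x_at. Probe set names ending in _x_at mark probes that may also bind other transcripts, and 4 of the 5 carried that ending. The exception, 1415800_at, gave 10762, 10126 and 8933 in replicates 3, 8 and 9 (9940 ± 929), so Gja1 was above background without the others as well. Signals of 12223, 8436 and 8313 came from 1438945_x_at, and of 5368, 6013 and 5523 from 1438650_x_at. The dimmest of the 5, 1438973_x_at, read 1011, 973 and 1306. These probe sets did not share an order of the samples: replicate 3 was the highest for 3 of them, and replicates 8 and 9 for 1 each. The lower value of replicate 8 in 1437992_x_at was therefore not seen in all probe sets of the gene.

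The last Gja1 probe set, 1415801_at, stood apart from these, with signals of 41.9, 106 and 308. It exceeded background in replicate 9 alone, by 0.01 log2 units, and its range over the samples was 2.85. The signal at the 3′ end over that at the 5′ end of the control transcript Actb, a measure of how far labelled RNA reached into transcripts, was 7.45, 6.50 and 4.0 in replicates 3, 8 and 9, and that of Gapdh 18.9, 15.1 and 16.4. The part of this in the 1415801_at values was not tested. Such disagreement was common on these arrays: 7021 genes with more than 1 probe set were above background, and for 70.9% of them some probe set was not. For Gjc1 both probe sets were above background, the second, 1447787_x_at, at 362, 536 and 640 (513 ± 141), lowest in replicate 3 as was the first.

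**Figure D2:**
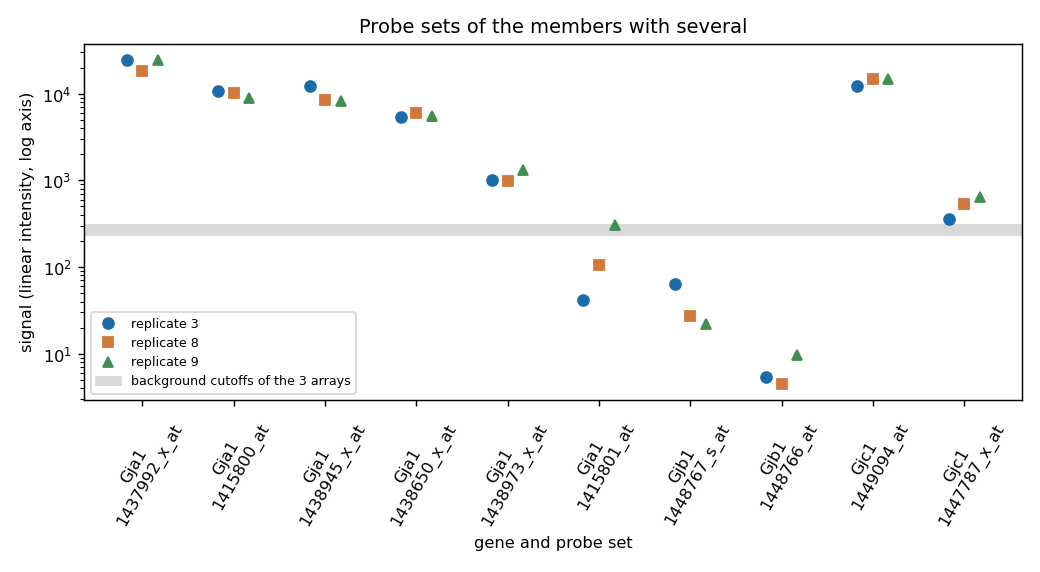
Signal (log axis) in the 3 samples for every probe set of Gja1, Gjb1 and Gjc1, the members with several, with the band of background cutoffs in grey. The Gja1 probe sets above background differ in brightness from 1097 to 22297 on average but little between samples, whereas 1415801_at reads between 41.9 and 308.

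Of the vascular connexins, Gja4 was above background and Gja5 was not. Gja4 encodes Cx37, a connexin of endothelium, and gave signals of 617, 283 and 449 in replicates 3, 8 and 9 (449.8 ± 167). Replicate 8 exceeded its cutoff by only 0.07 log2 units, and with the 99th percentile of the reference genes as background Gja4 was not above it. Gja5 encodes Cx40, a connexin of arterial endothelium and of the heart. Its single probe set read 34.0, 8.98 and 17.6 (20.2 ± 12.7), that is -2.76, -4.76 and -4.05 log2 units relative to the cutoff of each array.

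Of the endothelial list, 10 of 12 genes were above background. The receptor gene Tek had signals of 3988, 3332 and 1467, the vascular cadherin gene Cdh5 2930, 2358 and 1538, and the arterial genes Sox17 and Efnb2 means of 4709 ± 1063 and 5588 ± 2203. Pecam1 and Tie1, the genes of that list not above background, exceeded it in replicate 3 alone. The summed signal of the 12 endothelial genes was 25261, 29958 and 23323 in replicates 3, 8 and 9. By gene, replicate 3 gave the highest signal for 7 of the 12, replicate 8 for 4 and replicate 9 for 1. The lowest signal was that of replicate 9 for 10 of the 12, of replicate 3 for 2 and of replicate 8, the lowest for Gja4, for 0. The part of endothelium in the Gja4 values was not tested.

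Among the beta connexins, named for their sequence group and known mainly from epithelia, Gjb2 was above background. Gjb2 encodes Cx26, found with the Gjb1 product in hepatocytes and with that of Gjb6 in the inner ear and epidermis. The signals of Gjb2 were 858, 344 and 997 in replicates 3, 8 and 9 (733 ± 344). Replicate 8 was 0.35 log2 units above background and the others at least 1.70, and with the 99th percentile as background Gjb2 was not above it. Hepatocyte genes were also lowest in replicate 8, all 9 of them, with summed signals of 241618, 128139 and 180435 in replicates 3, 8 and 9. All 9 were highest in replicate 3, whereas Gjb2 was highest in replicate 9. Signals of the basal and squamous epithelium list summed to 29631, 20841 and 24489, with 7 of 9 above background and 5 of 9 lowest in replicate 8. Lists of other cell types were low there too, with 6 of 6 erythroid and 6 of 7 macrophage genes lowest in replicate 8. The part of any of these cell types in the Gjb2 signal was not tested.

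Gjb1, the other hepatocyte connexin gene, encodes Cx32 and was below background with both probe sets. The brighter, 1448767_s_at, read 63.5, 27.1 and 21.9 (37.5 ± 22.7), and 1448766_at read 5.42, 4.52 and 9.64. These values stood beside strong signals of liver transcripts such as those of alpha-fetoprotein, Afp (45937 ± 9943), and albumin, Alb (43401 ± 9173). Gjb6, which encodes Cx30, had signals of 83.4, 120.1 and 156 (119.9 ± 36.5), with margins of -1.49, -1.16 and -0.97 log2 units relative to background.

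Gjb5 encodes Cx31.1, a connexin of squamous epithelium and placenta, and its 3 values differed more than those of any other member. Its signals were 330.3, 85.7 and 23.8 in replicates 3, 8 and 9, a range of 3.74 on the log2 scale. Replicate 3 exceeded its cutoff by 0.48, whereas the other margins were -1.64 and -3.63. In the basal and squamous epithelium list, replicate 3 was also highest for the keratin gene Krt6a, with 5385, 816 and 1145, as was Sfn, an epithelial 14-3-3 protein gene below background in every sample (107, 9.74 and 11.0). Over the 9 genes of the list, the highest signal was that of replicate 3 for 4, of replicate 8 for 1 and of replicate 9 for 4, the last including Krt14 (1763, 666 and 1777) and Trp63 (2734, 3431 and 3993), which mark basal epithelial cells. The part of squamous epithelium in the Gjb5 value of replicate 3 was not tested.

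Panx1 encodes the widely expressed pannexin, an ATP release channel. It gave signals of 843, 1844 and 739 in replicates 3, 8 and 9 (1142 ± 610.0). All were at least 1.27 log2 units above background, and replicate 8 was the highest, unlike for any other member above background. Epithelial genes were highest in that sample for 7 of 11, among them Epcam (2586, 8308 and 2414) and Cdh1 (2029, 4767 and 1759), with summed signals of 45146, 61819 and 39284 over the list. The sums of the smooth muscle (77433, 78948 and 68077) and endothelial (25261, 29958 and 23323) lists were highest in replicate 8 as well. By gene, replicate 8 was the highest for 4 of 10 smooth muscle and 4 of 12 endothelial genes. Erythroid genes, whose cells are known to carry Panx1, were all lowest in replicate 8, with sums of 162820, 77828 and 119324. No part of these cell types in the Panx1 signal was tested.

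Replicate 8 was the lowest sample for Gja1, Gja4 and Gjb2 and the highest for Panx1, and for Gjc1 it lay beside replicate 9. For Gja1 this refers to its brightest probe set, and 2 of its 5 probe sets above background were lowest there. The replicate 8 signals of Gja4 and Gjb2 lay only 0.07 and 0.35 log2 units above background, where the order of samples is not reliable. A range of at least 1 on the log2 scale was reached by 3 of the 5 members above background, Gjb2 (1.53), Panx1 (1.32) and Gja4 (1.12). Of all genes above background 15.9% reached it. Without replicate 8 none of the 5 reached it (0.46 for Gja4, 0.22 for Gjb2 and 0.19 for Panx1), against 8.84% of genes. Without replicate 3 there were 2 of 5, against 6.94% of genes, and without replicate 9 there were 3, against 7.28%. Replicate 8 was the lowest or highest sample for Gja4, Gjb2 and Panx1, so leaving it out had to narrow their ranges. The median SD of the 5 was 0.56 and that of all genes above background 0.29, and without replicate 8 they were 0.15 and 0.24. With the 99th percentile as background they were 0.23, over 3 members, and 0.28. The comparison was not matched for level: 41.9% of named genes were dimmer than Gja4, 48.4% than Gjb2 and 55.4% than Panx1. Quantile normalization of the arrays kept replicate 8 lowest for Gja1, Gja4 and Gjb2 and highest for Panx1. That normalization shifted the median gene of replicate 8 by 0.10 and of replicate 9 by -0.11 on the log2 scale.

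**Figure D3:**
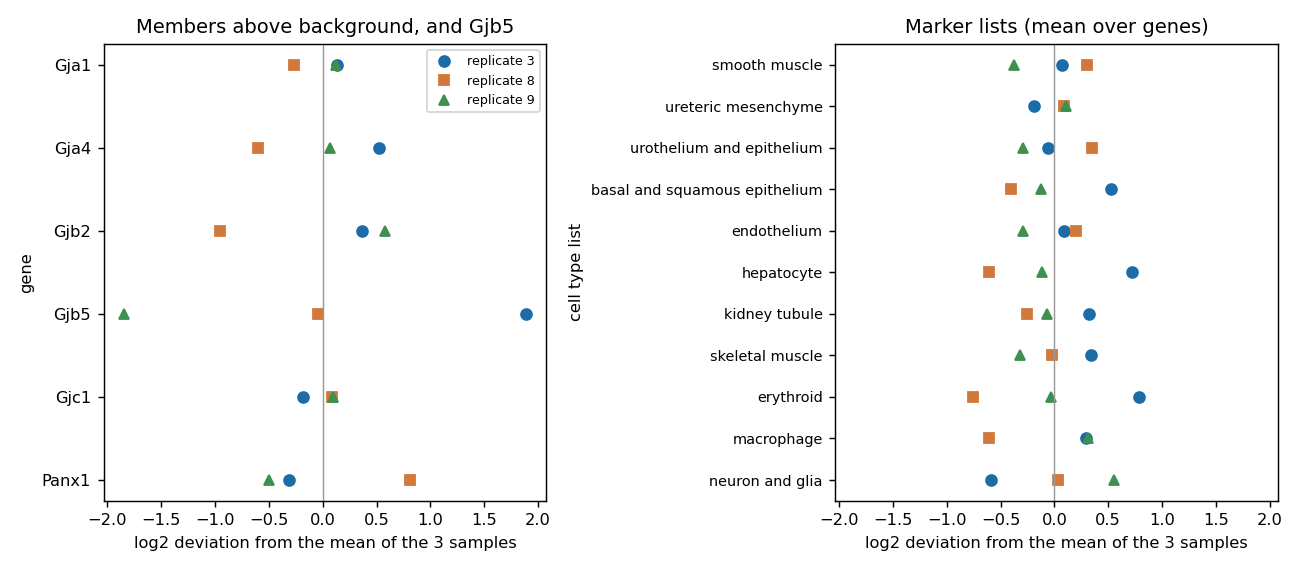
Log2 deviation of each sample from the mean of the 3 samples, for the members above background and Gjb5 (left) and as the mean over the genes of each cell type list (right), 1 symbol per sample. Replicate 8 is the lowest for Gja1 (by its brightest probe set), Gja4 and Gjb2 and the highest for Panx1. It is also the lowest for the hepatocyte (mean deviation -0.61), erythroid (-0.76), macrophage (-0.61), basal and squamous epithelium (-0.40) and kidney tubule (-0.26) lists.

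**Figure D4:**
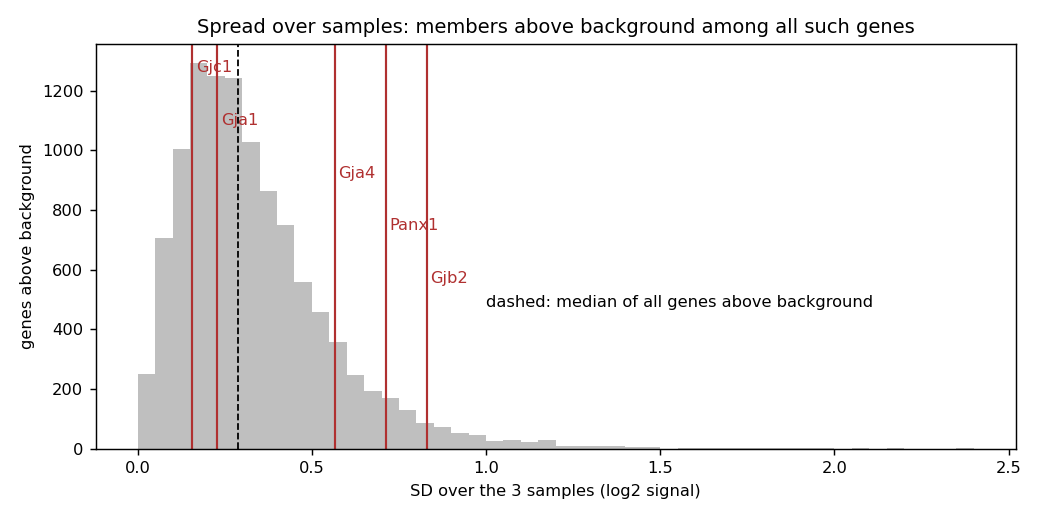
Number of genes above background by the SD of their log2 signal over the 3 samples (grey bars), with the 5 members above background as red lines and the median of all such genes dashed at 0.29. Gjc1 (0.16) and Gja1 (0.23) lie left of the median, and Gja4 (0.56), Panx1 (0.71) and Gjb2 (0.83) right of it.

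The rest of both families gave no gene above background. Of 8 further connexin and pannexin genes measured, 7 were below background on every array and with every one of their probe sets. Gjd2, the connexin gene of neurons and islet cells, was the exception, with signals of 83.7, 415 and 600 in replicates 3, 8 and 9. It exceeded background in replicates 8 and 9, while its other probe set read 12.2 at most. Neuron and glia genes had sums of 8614, 13046 and 17220, with 4 of 6 genes lowest in replicate 3 and 2 in replicate 8, and their part in the Gjd2 signal was not tested. Gja3, a lens connexin gene next to Gjb2 on the chromosome, read 237, 73.3 and 133, with replicate 3 just under its cutoff. The pannexin genes Panx2 (9.31, 71.1 and 8.69) and Panx3 (4.45, 101 and 36.1) were below background in each sample. The remaining genes, Gja10, Gjc3, Gjd4 and Gje1, had mean signals between 5.27 and 62.8.

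A list of genes of junction scaffolds, cell adhesion and connexin modification or turnover was above background for 18 of 19 measured, against 60.1% of all named genes. The median over the list was 4622 for the mean signal. Ctnnb1 and Ctnna1, which encode the catenins of adherens junctions, had signals of 49403 ± 8255 and 39876 ± 4373. The ubiquitin ligase gene Nedd4, whose product marks Cx43 for removal, read 39365 ± 5540, and the cortactin gene Cttn 38778 ± 6339. Tjp1 encodes ZO-1, the scaffold that binds the tail of Cx43, and gave 18658, 20368 and 14521 in replicates 3, 8 and 9. Its relative Tjp3 was the one gene not above background (217 ± 50.8).

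Genes of ATP signalling were above background for 5 of 13 measured, against 60.1% of all named genes, with a median over the list of 262 for the mean signal. The receptor genes P2rx4 (1886 ± 173) and P2rx7 (416 ± 58.9) were among them, with the ectonucleotidase genes Entpd2 (575 ± 112), Entpd1 (396 ± 125) and Nt5e (529 ± 181), whose products break down extracellular ATP and its derivatives. P2rx1, the receptor gene of smooth muscle, exceeded background on 1 array (248 ± 102), as did P2ry6 (209 ± 87.4), the vesicular nucleotide transporter gene Slc17a9 (262 ± 74.5) and the phosphatase gene Alpl (315 ± 112). P2rx3 (54.4 ± 51.7), P2ry1 (18.3 ± 20.4), P2ry2 (13.4 ± 4.21) and Entpd3 (155 ± 63.8) were below background on every array. With the 99th percentile as background 1 of the 13 was above it, against 50.2% of all named genes, and with all probe sets of each gene averaged 1 of the 13 was, against 49.8%.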

How the data were processed

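The authors deposited a linear intensity for each of 45101 probe sets on each array, made with GCOS, Affymetrix software, per the submitters' processing notes. The version, the signal algorithm and detection calls are unknown (not given in the sources used here). The 2% trimmed mean was 1500 on each array, so arrays had been scaled to one mean and levels are relative within an array, while medians differed (234, 198 and 273 in replicates 3, 8 and 9). Probe sets were named by the platform annotation: 34958 had 1 symbol and were used, 932 had several and 9211 are unnamed here. All 29 probe sets of both families kept their symbol by Entrez ID in RefSeq (GRCm38.p6). Signals were analysed as log2(signal + 1), with Python 3.11.15, NumPy 2.4.6, pandas 2.3.3 and SciPy 1.17.1. No p-value was computed, as there is 1 group. The calls were tested on simulated data. The raised genes there lay well over the cutoff, so that test could not judge calls near it, as for Gja4 and Gjb2. The 3 arrays limit the precision of every level.

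Named genes are all members with all their probe sets, all other family genes measured, and, of each partner list, the 4 brightest above background and those not above it, with some further genes named for their role after their values were seen. The members and lists were chosen with earlier results of these data known. The alternatives tried were: pseudocounts of 16 and 64; quantile normalization; averaging all probe sets of a gene; dropping those that end in _s_at or _x_at; the 99th or 90th percentile as cutoff; a call on at least 2 arrays; each replicate left out in turn; all genes regardless of level, for the spread; and, chosen after seeing the data, a reference list without pancreas genes.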

Additional observations from a re-analysis of the deposited data

How the results depend on the processing

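Of 12 alternatives, 11 left 5 members above background, and the 99th percentile left 3 (Gja1, Gjc1 and Panx1). Under that percentile the smallest margin over background was -0.79 for Gja4 and -0.51 for Gjb2 on the log2 scale, and 1 ATP signalling gene was above background. The median SD of the members above background was then 0.23, against 0.28 for all such genes (0.56 against 0.29 in the main setting). Averaging all probe sets of each gene also gave 1 ATP signalling gene. With a call on at least 2 arrays, 1 other family gene (Gjd2) passed. Omitting replicates in turn gave 0 to 1 for these genes (1 without replicate 3), 5 for the members, 18 for the connexin partners, 5 for ATP signalling, and a median SD of 0.15 (without replicate 8) to 0.79. The partner count was 17 or 18 throughout. Pseudocounts, quantile normalization, probe set endings, the 90th percentile and the reference list without pancreas genes changed no call of a member. No paired analysis was possible because there is 1 group. The causes were not tested. Depth is set by the 3 arrays, and signals near or below background, as for Gja4, Gjb5, Gjb6 and, in replicate 8, Gjb2, have no reliable order.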
